A study of Mus musculus with 4 samples.

Results

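The S100 genes encode small proteins that bind calcium through EF-hand motifs and then attach to other proteins, among them annexins, cytoskeletal proteins and cell-surface receptors. Most work inside the cell as paired subunits, whereas S100A8 and S100A9 form calprotectin, a complex that neutrophils and monocytes carry in bulk and release during inflammation. In adult liver, S100A6, S100A10 and S100A11 are better known from bile duct epithelium, mesenchymal cells and injured or neoplastic tissue than from resting hepatocytes. The members were taken by gene name. The rule names 8 genes (S100a1, S100a4, S100a6, S100a8, S100a9, S100a10, S100a11 and S100a13), and 7 of them have a row among the 13903 genes of the deposited table. S100a4 was not analysed here. A further 3 S100 genes with a row (S100a14, S100a16 and S100g) are described after the members.

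Expression was measured by mRNA-seq of whole mouse liver in 4 libraries. All mice carried floxed Ogt, the gene of O-GlcNAc transferase, on a C57BL/6J background, and all were fed the CDE diet (choline-deficient and supplemented with ethionine), which injures hepatocytes. AAV8-TBG-CRE was given to the OGT-KO mice and AAV8-TBG-eGFP to the controls. The TBG promoter is active in hepatocytes, so other liver cells are not a target of the deletion. Livers were collected either at once (no recovery) or 7 days later, and the labels used here give no age or sex. RNA of 3 mice was pooled into the single library of each condition, so no value has a replicate error and no difference between conditions could be tested. No group without the diet was analysed.

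Values are CPM, read counts divided by the total on the listed genes and set to a sum of 1000000, and each library held between 19972699 and 22866431 such reads. An interval in square brackets is a 95% exact interval (Clopper-Pearson for a CPM value, conditional binomial for a ratio) and covers counting error only, not the variation between mice. The log2 fold change subtracts log2(CPM + 1) of one library from that of another. A gene was called at a 2-fold difference on that scale, among the 8963 genes that averaged 10 CPM or more. Ogt itself was at 64.7 CPM in control and 55.3 in the OGT-KO-labelled library with no recovery, and at 55.7 and 77.7 after 7 days. At the deposited scaling the later value goes against the label, so every direction below is between labels. Less the median of the compared genes, given below, the log2 fold change of Ogt was -0.73 with no recovery and -0.005 after 7 days. Hepatocyte markers defined the tissue in every library, with Alb between 41362 and 54434 CPM. The whole table was shifted between the labels. For genes past the filter the median log2 fold change stood at 0.51 before recovery and 0.48 at 7 days, and these medians became -0.19 and -0.18 under median-ratio scaling. Genes called higher made up 81.1% and 84.3% of all called genes at the deposited scaling, 55.2% and 62.1% with upper-quartile scaling, and 40.4% and 49.6% with median-ratio scaling.

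Of the members, S100a10, S100a11 and S100a6 were at least 2-fold higher in the OGT-KO-labelled library than in control at both time points. None was at least 2-fold lower. Of all compared genes, 24.4% were called higher and 5.69% lower with no recovery, and 22.9% and 4.27% after 7 days. A total of 5 members passed the filter on low values. S100a6 and S100a11 passed it only through the OGT-KO-labelled libraries, and a gene that passes in that way must differ between the labels. S100a1, S100a10 and S100a13 were above 10 CPM in every library. S100a8 and S100a9, with means of 4.36 and 4.74 CPM, stayed under the filter. The median log2 fold change of the 7 members with a row was 1.73 with no recovery and 3.01 after 7 days, beside 0.65 and 0.61 for all listed genes. These medians are the values of S100a8 and S100a9, and with a pseudocount of 10 the members' medians were 0.64 and 0.98. The median of all listed genes was not computed with a pseudocount of 10, so 0.65 and 0.61 are not its counterpart.

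**Figure D1:**
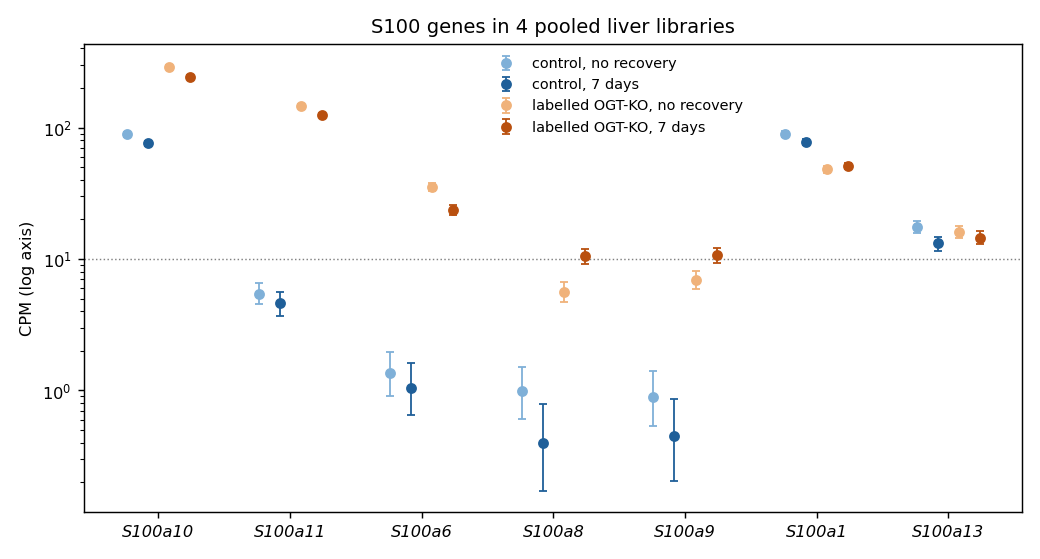
CPM (log axis) of the 7 members with a row in each of the 4 libraries. Points are single libraries, bars are 95% exact counting intervals, and the dotted line marks 10 CPM. The OGT-KO-labelled libraries lie above control for S100a10, S100a11, S100a6, S100a8 and S100a9, below it for S100a1, and close to it for S100a13.

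S100a10, also called p11, is the member that lacks a working calcium site and holds annexin A2 in a complex at the cell membrane. Its level was 88.9 CPM [84.9 to 93.0] in control and 291 [284 to 298] in the OGT-KO-labelled library with no recovery. After 7 days it was 75.7 [71.9 to 79.6] and 244 [238 to 251]. The libraries of the 2 labels did not overlap, and the ratio was 3.27 [3.11 to 3.44] before recovery and 3.23 [3.05 to 3.42] after 7 days. The log2 fold change was 1.70 and 1.68. With median-ratio scaling the difference came to 0.982 and 0.997, just short of the 2-fold limit at both time points. S100a10 was the most abundant member per kilobase of transcript in the OGT-KO-labelled libraries, at 424 and 356 CPM per kilobase, while in control it stood beside S100a1.

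S100a11, or calgizzarin, binds annexin A1 and takes part in keratinocyte and epithelial growth control and in membrane repair. It was low in control, at 5.46 CPM [4.51 to 6.54] before recovery and 4.61 [3.71 to 5.65] after 7 days. In the OGT-KO-labelled libraries it reached 145 [140 to 150] and 125 [120 to 129]. These ratios of 26.6 [22.1 to 32.3] and 27.1 [22.0 to 33.7] were alike at both time points, and no control library came near the other label. The log2 fold change was 4.50 and 4.49, or 3.83 and 3.86 under median-ratio scaling. Over all 13903 genes, 99.7% and 99.6% had a lower log2 fold change than S100a11.

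The 250 bases before the RefSeq start of S100a11 (GRCm38.p6, chr3:93520246-93520495, plus strand) are shown because this member had the highest log2 fold change of the members. Capitals mark matches to TGANTCA, the AP-1 element, and to GGGCGG, the GC box, searched on both strands.
S100a11: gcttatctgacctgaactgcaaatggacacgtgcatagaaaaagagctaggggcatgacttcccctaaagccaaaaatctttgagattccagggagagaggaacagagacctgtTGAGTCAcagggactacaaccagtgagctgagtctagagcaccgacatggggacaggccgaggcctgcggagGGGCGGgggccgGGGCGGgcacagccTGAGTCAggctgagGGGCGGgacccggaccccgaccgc
The window holds 2 AP-1 matches, which begin 136 and 38 bases before the start, and 3 GC boxes, and none of these matches overlap. Over all 32851 RefSeq promoter windows of this length, 6.75% hold an AP-1 match and 32.7% a GC box. A match describes the letters only and does not show that a factor binds there.

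S100a6, or calcyclin, is found in proliferating and mesenchymal cells and binds the ubiquitin-ligase adaptor CACYBP. It was at 1.36 CPM [0.914 to 1.96] in control and 35.3 [32.9 to 37.8] in the OGT-KO-labelled library with no recovery. After 7 days it was at 1.05 [0.651 to 1.61] and 23.5 [21.5 to 25.6]. Control therefore held 29 and 21 reads, against 807 and 530 in the other label. The ratio was 25.9 [17.9 to 38.9] before recovery and 22.3 [14.5 to 36.4] after 7 days. The log2 fold change, 3.94 and 3.58, understates this ratio because of the pseudocount at such low control values. Under median-ratio scaling it was 3.36 and 3.07. The window before S100a6 is shown for contrast with that of S100a11, since both genes had ratios above 20 at both time points. It lies on the plus strand of GRCm38.p6 at chr3:90612644-90612893, and its capitals mark a match to CCAAT on the opposite strand.
S100a6: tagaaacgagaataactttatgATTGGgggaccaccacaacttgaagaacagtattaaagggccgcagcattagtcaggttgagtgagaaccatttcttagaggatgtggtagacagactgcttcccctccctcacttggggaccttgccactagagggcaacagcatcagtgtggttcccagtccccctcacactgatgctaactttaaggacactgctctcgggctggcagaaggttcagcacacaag
No AP-1 or GC box match was found in these letters, and 33.8% of all windows hold the CCAAT match. S100a10 had no entry in the sequence table.

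**Figure D2:**
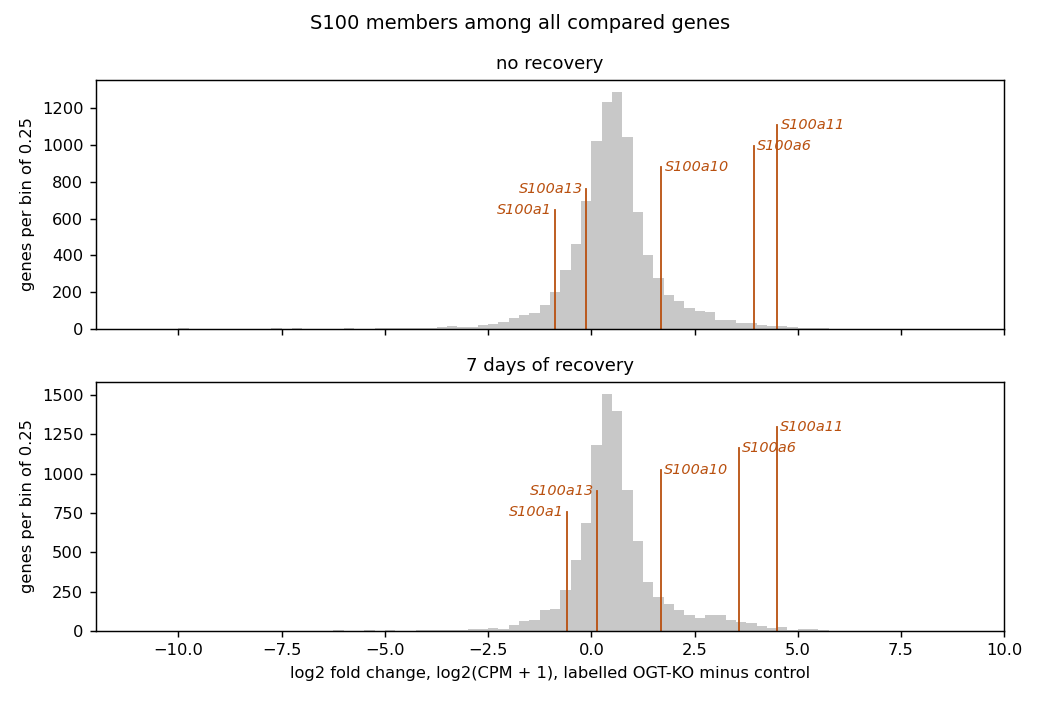
Histogram of the log2 fold change, on the log2(CPM + 1) scale, of the 8963 compared genes in bins of 0.25, with no recovery above and after 7 days below. Vertical lines mark the 5 members that passed the filter. S100a6 and S100a11 stand in the upper tail, S100a10 at 1.70 and 1.68, and S100a1 below 0.

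S100a8 and S100a9 encode the subunits of calprotectin. With no recovery, S100a8 was at 0.988 CPM [0.612 to 1.51] in control and 5.60 [4.67 to 6.66] in the OGT-KO-labelled library. After 7 days it was at 0.401 [0.173 to 0.789] and 10.5 [9.17 to 11.9]. S100a9 ran beside it, at 0.894 [0.538 to 1.40] and 6.95 [5.91 to 8.12] before recovery and at 0.451 [0.206 to 0.855] and 10.7 [9.37 to 12.1] after 7 days. Both genes were thus higher in each OGT-KO-labelled library than in either control library. The control values rest on between 8 and 21 reads. The ratio of S100a8 was 5.67 [3.55 to 9.47] before recovery and 26.1 [13.04 to 61.2] after 7 days, and that of S100a9 was 7.78 [4.82 to 13.3] and 23.7 [12.3 to 52.5]. The log2 fold changes were 1.73 and 3.03 for S100a8 and 2.07 and 3.01 for S100a9. With no filter on low values, 33.1% and 32.3% of all listed genes were at least 2-fold higher. With a pseudocount of 10 in place of 1, both members were under 2-fold, at 0.51 and 0.98 for S100a8 and 0.64 and 0.98 for S100a9.

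The reads of S100a8 and S100a9 stayed near equal numbers, with a ratio of 1.11 [0.566 to 2.17] and 0.889 [0.298 to 2.60] in the control libraries and 0.805 [0.633 to 1.02] and 0.979 [0.815 to 1.18] in those labelled OGT-KO, for no recovery and then 7 days. Every one of these intervals contains 1. Of 11 named neutrophil markers 6 have a row, and each of the 6 was higher in the OGT-KO-labelled library than in control at both time points. Most listed genes were higher too, so this direction alone does not set the markers apart. The median log2 fold change of the 6 markers was 1.16 and 1.32, beside 0.65 and 0.61 for all listed genes. The summed level of the 6 markers was 4.61 and 1.75 CPM in control and 23.6 and 31.5 in the OGT-KO-labelled libraries. Csf3r, the granulocyte colony-stimulating factor receptor and the only one of them past the filter, was at 3.10 and 1.20 CPM in control and 15.5 and 21.4 in the other label, which is most of each sum. Csf3r was under 10 CPM in both control libraries and passed the filter only through the other label, so it had to differ. Between the time points of that label, Csf3r was higher after 7 days, whereas Ltf went from 1.79 to 0.842 CPM and Ngp from 1.31 to 1.29. The reads of S100a8 per read of Csf3r were 0.318 [0.185 to 0.527] and 0.333 [0.129 to 0.767] in control. They were 0.362 [0.293 to 0.444] and 0.489 [0.416 to 0.572] in the OGT-KO-labelled libraries. Those of S100a9 were 0.288 [0.163 to 0.486] and 0.375 [0.153 to 0.836] in control, and 0.449 [0.370 to 0.543] and 0.499 [0.426 to 0.584] in the other label. For both genes the intervals of the 2 labels overlapped at each time point. Mmp8, a granule protease of neutrophils, had no read in control with no recovery and was below 1 CPM in each library. Monocyte and macrophage markers, of cells that also express calprotectin, summed to 219 and 82.8 CPM in control and 1022 and 830 in the other label. In bulk RNA, a smaller number of cells of a type and less RNA per cell cannot be told apart, here or for any gene below. The part of these cells in the result was not tested.

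The windows before these calprotectin genes are shown because the genes kept similar read numbers in every library although they lie on opposite strands of chromosome 3, S100a8 at chr3:90668821-90669070 on the plus strand and S100a9 at chr3:90695722-90695971 on the minus strand (GRCm38.p6). Capitals mark the TATA box, TATAAA, before S100a8, and before S100a9 a match to TTGCNNAA, the core of a C/EBP element, and a GC box.
S100a8: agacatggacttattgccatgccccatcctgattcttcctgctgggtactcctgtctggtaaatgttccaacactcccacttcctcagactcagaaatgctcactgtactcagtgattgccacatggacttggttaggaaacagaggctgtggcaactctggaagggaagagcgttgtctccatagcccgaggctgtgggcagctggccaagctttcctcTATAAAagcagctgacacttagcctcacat
S100a9: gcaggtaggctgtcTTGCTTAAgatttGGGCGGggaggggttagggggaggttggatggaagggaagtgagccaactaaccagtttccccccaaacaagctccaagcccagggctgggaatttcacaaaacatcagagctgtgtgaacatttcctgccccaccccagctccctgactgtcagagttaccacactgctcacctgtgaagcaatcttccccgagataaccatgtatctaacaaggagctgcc
The TATA box begins 30 bases before the start of S100a8, and 12.4% of all windows hold one. The C/EBP core begins 236 bases before the start of S100a9, and 9.56% of windows hold it. No motif of the search was found in both windows.

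S100a1 and S100a13 were not higher at 2-fold under either label. S100a1 is best known as a regulator of calcium handling in heart and skeletal muscle. It was at 89.2 CPM [85.2 to 93.3] in control and 48.3 [45.5 to 51.2] in the OGT-KO-labelled library with no recovery, and at 77.2 [73.4 to 81.2] and 51.0 [48.1 to 54.0] after 7 days. It was the only member lower in the OGT-KO-labelled library at both time points and under all 3 scalings. Control held 1.85 times [1.71 to 1.99] as much with no recovery and 1.52 times [1.40 to 1.64] as much after 7 days. The log2 fold change was -0.87 and -0.59, short of the 2-fold limit, and with median-ratio scaling it passed that limit at -1.58 and -1.26. Only 5.24% and 5.96% of the listed genes had a lower log2 fold change.

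S100a13 takes part in the release of FGF1 and interleukin 1 alpha, which leave the cell without a signal peptide. Its levels were 17.6 CPM [15.9 to 19.5] in control and 16.05 [14.4 to 17.8] in the OGT-KO-labelled library with no recovery, and 13.1 [11.6 to 14.8] and 14.5 [13.004 to 16.2] after 7 days. These intervals overlap between the labels at both time points, and the ratio was 0.910 [0.786 to 1.05] and 1.11 [0.939 to 1.31]. The sign of its log2 fold change after 7 days depended on the scaling, at 0.14 as deposited, -0.32 with upper-quartile and -0.50 with median-ratio scaling.

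S100a1 and S100a13 start head to head, S100a1 on the minus strand and S100a13 on the plus strand, with 104 bases between the RefSeq starts (GRCm38.p6, chr3:90514331-90514434). This stretch, shown on the plus strand, is printed because the genes that leave it in opposite directions differed in their ratios.
S100a1 to S100a13: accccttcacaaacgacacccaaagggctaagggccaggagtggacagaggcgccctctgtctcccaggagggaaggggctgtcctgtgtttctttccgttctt
None of the motifs searched (TATA box, GC box, CCAAT, AP-1, C/EBP, NF-κB and CAAAGTCCA for HNF4) was found in it. S100a1 had 5.06 reads [4.52 to 5.66] per read of S100a13 in control with no recovery and 5.89 [5.16 to 6.73] after 7 days. In the OGT-KO-labelled libraries it had 3.01 [2.67 to 3.39] and 3.51 [3.10 to 3.98], so the intervals of the 2 labels did not overlap. This ratio is taken within a library and does not depend on the scaling. Whether the reads were counted by strand is not stated, and reads where transcripts of such neighbours overlap could be assigned to either gene.

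**Figure D3:**
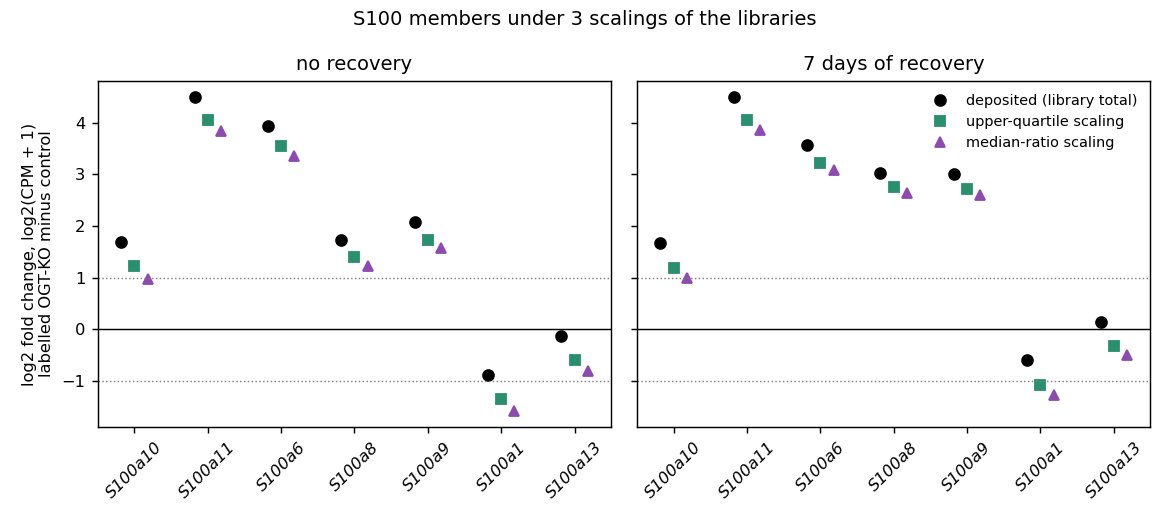
Log2 fold changes, on the log2(CPM + 1) scale, of the 7 members with a row under 3 scalings of the libraries, with no recovery on the left and after 7 days on the right. Dotted lines mark the 2-fold limits. Each change of scaling moves the members down together, which takes S100a10 to 0.982 and 0.997, S100a1 past the lower limit and S100a13 below 0.

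Of the S100 genes outside the named members, S100a16 was compared and did not reach 2-fold, with 20.4 CPM [18.5 to 22.4] in control and 26.3 [24.3 to 28.5] in the OGT-KO-labelled library with no recovery, and 18.0 [16.2 to 20.0] and 28.9 [26.7 to 31.2] after 7 days. Its log2 fold changes of 0.35 and 0.65 became -0.16 and 0.17 once the median of the compared genes was subtracted. S100a14, an epithelial member, had 0 reads in both control libraries and 40 and 26 reads in those labelled OGT-KO. Set against a floor of 3 reads per library, it was at least 12.4-fold higher with no recovery and at least 7.67-fold higher after 7 days. With the counting error of its own reads included, the exact interval of the ratio began at 9.62 and 5.81. S100g, the calbindin of intestinal calcium uptake, had 1 read in each control library. In the OGT-KO-labelled libraries it had 206 reads, or 9.01 CPM [7.82 to 10.3], with no recovery and 27 reads, or 1.20 CPM [0.788 to 1.74], after 7 days. No other S100 gene differed as much between the time points of one label, with a log2 fold change of -2.19. The ratio between the labels was 192 [34.0 to 7600] before recovery and 23.9 [3.94 to 978] at 7 days.

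The make-up of the S100 reads differed between the labels more than between the time points. All 10 S100 genes summed to 225 and 191 CPM in control and to 585 and 510 in the OGT-KO-labelled libraries. S100a1 held 39.7% [38.3 to 41.1] and 40.5% [38.9 to 42.1] of the S100 reads in control but 8.25% [7.79 to 8.73] and 9.99% [9.45 to 10.5] in the other label. S100a11 held 2.43% [2.01 to 2.90] and 2.42% [1.95 to 2.96] in control and 24.8% [24.1 to 25.6] and 24.4% [23.7 to 25.2] in the other label. S100a10 took 39.5% and 39.7% in control and 49.7% and 47.9% in the OGT-KO-labelled libraries. Within a library, then, S100a1 and S100a10 had near equal reads in control, at 1.003 [0.941 to 1.07] and 1.02 [0.949 to 1.10] reads of S100a1 per read of S100a10, against 0.166 [0.156 to 0.177] and 0.209 [0.196 to 0.222] in the other label. These shares add up to the whole, so a higher share of one gene lowers the others. Per kilobase of the principal GENCODE transcript, the order in control with no recovery was S100a1 (132), S100a10 (130), S100a13 (24.7), S100a11 (10.7), S100a8 (2.03), S100a6 (1.87) and S100a9 (1.72). Neither the first 2 nor the last 3 of these differed beyond their counting intervals. In the OGT-KO-labelled library with no recovery, the order was S100a10 (424), S100a11 (284), S100a1 (71.3), S100a6 (48.3), S100a13 (22.4), S100a9 (13.4) and S100a8 (11.5), of which the last 2 overlapped in their counting intervals. After 7 days the order in that label began with S100a10 at 356, S100a11 at 244, S100a1 at 75.3, and S100a6 at 32.1, followed by S100a8 at 21.5, S100a9 at 20.6 and S100a13 at 20.3. The last 3 overlapped in their counting intervals, so their order is not resolved.

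**Figure D4:**
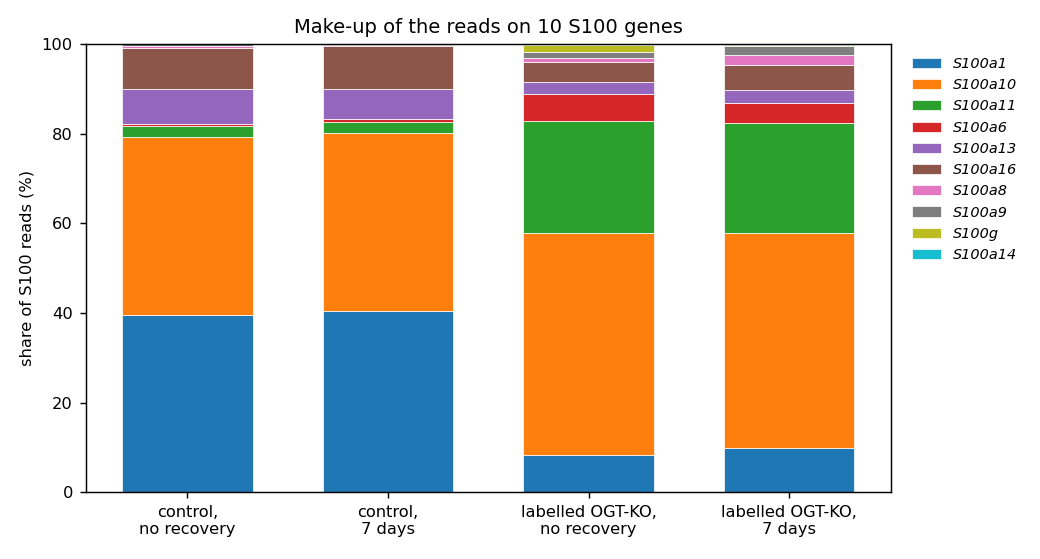
Share of the reads on 10 S100 genes that each gene took, in percent, with 1 bar for each of the 4 libraries. S100a1 holds 39.7% and 40.5% of the control bars and 8.25% and 9.99% of the bars labelled OGT-KO, where S100a11 holds 24.8% and 24.4%.

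Binding partners and receptors of S100 proteins were listed as 16 genes, all with a row and 12 past the filter. At each time point 7 of the 12 were at least 2-fold higher in the OGT-KO-labelled library and 1 was at least 2-fold lower, beside 24.4% and 22.9% of all compared genes called higher and 5.69% and 4.27% called lower. Anxa1 and Plat were under 10 CPM in both control libraries and passed the filter only through the other label, so they had to differ. The 7 were not the same genes. Sugt1, with log2 fold changes of 1.13 and 0.76, was called only before recovery, and Anxa6, with 0.63 and 1.15, only after 7 days. The annexin A2 gene, whose product binds S100A10, had 15.3 and 9.21 CPM in control and 404 and 332 in the OGT-KO-labelled libraries, with log2 fold changes of 4.63 for Anxa2 with no recovery and 5.03 after 7 days. S100a10 had 5.80 [5.15 to 6.54] and 8.22 [7.05 to 9.63] reads per read of Anxa2 in control, and 0.719 [0.697 to 0.743] and 0.735 [0.710 to 0.761] in the other label. S100a10 thus had more reads than Anxa2 in control and fewer in the other label. These ratios do not allow for transcript length, 685 bases for S100a10 and 1447 for Anxa2. Per kilobase of transcript, S100a10 stayed above Anxa2 in every library. It was at 130 and 111 CPM per kilobase in control against 10.6 and 6.37 for Anxa2. In the other label it was at 424 and 356 against 279 and 230. Plat, the tissue plasminogen activator, whose substrate plasminogen is bound by the S100A10 complex, was at 0.423 and 0.300 CPM in control and 55.5 and 117 in the OGT-KO-labelled libraries. Ahnak, a scaffold protein that binds the same complex, had log2 fold changes of 2.35 and 2.12. Anxa1, the S100A11 partner, had 2.68 and 2.62.

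Partners of the remaining members were mixed. Cacybp, which binds S100A6, had log2 fold changes of 0.58 and 0.78. S100a6 had 0.0417 [0.0277 to 0.0604] and 0.0469 [0.0287 to 0.0725] reads per read of Cacybp in control. In the other label it had 0.716 [0.653 to 0.784] and 0.598 [0.536 to 0.666]. Per kilobase of transcript, S100a6 was below Cacybp in control, at 1.87 and 1.44 CPM against 15.6 and 10.7. It was above Cacybp in the other label, at 48.3 and 32.1 CPM against 23.5 and 18.7. Fgf1, a growth factor that leaves the cell with S100A13, was the 1 partner called lower, at 91.6 and 81.3 CPM in control and 11.8 and 17.8 in the OGT-KO-labelled libraries. Its log2 fold change was -2.85 and -2.13, while S100a13 was at -0.13 and 0.14. Il1a, the other cargo named for S100A13, was under the filter with log2 fold changes of 1.06 and 1.38. Of the receptors of calprotectin, Tlr4 and Ager stayed under the filter, with at most 5.16 and 1.73 CPM in a library. Tlr4 had log2 fold changes of 1.67 and 1.81 and Ager of 0.80 and 1.07. Cd36, a fatty acid receptor, was past the filter and called higher at 1.68 and 1.67. Bsg, or basigin, was at 383 and 345 CPM in control and 553 and 593 in the other label, under 2-fold at both time points. Less the median of the compared genes, Bsg was at 0.02 and 0.30 and Cacybp at 0.07 and 0.30.

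**Figure D5:**
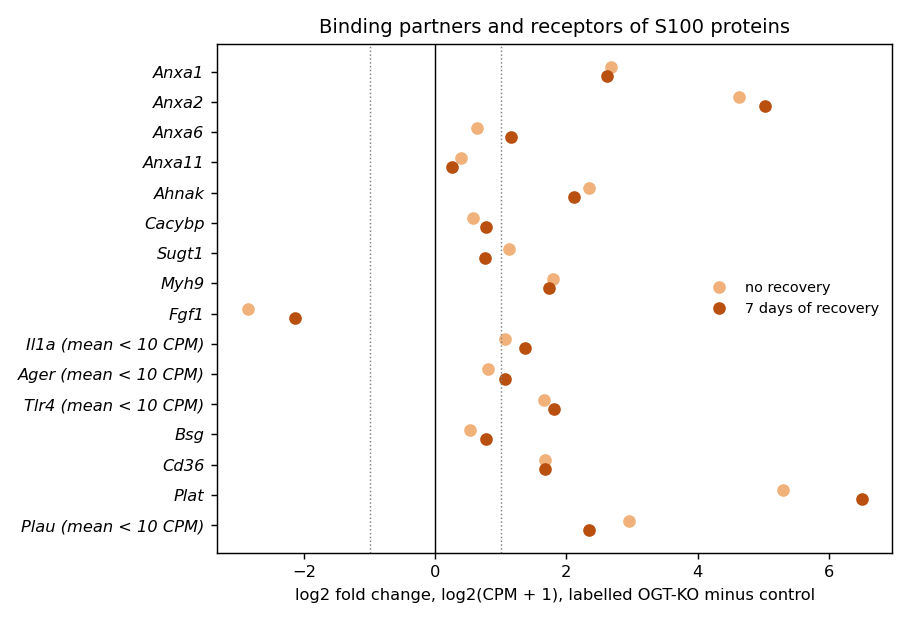
Log2 fold change, on the log2(CPM + 1) scale, of 16 binding partners and receptors of S100 proteins, with no recovery (light) and after 7 days (dark). Dotted lines mark the 2-fold limits. Anxa2 and Plat lie above 4 at both time points, and Fgf1 lies at -2.85 and -2.13.

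Markers of bile duct, of stellate cells and fibroblasts, and of monocytes and macrophages differed in the same direction as S100a6, S100a10 and S100a11. Most listed genes did so too. Of 5 bile duct markers (Krt19, Krt7, Epcam, Sox9 and Cftr), 4 passed the filter and all 4 were called higher at each time point, against 24.4% and 22.9% of all compared genes. Krt19, Krt7 and Epcam were under 10 CPM in both control libraries, so they passed only through the other label and had to differ. Their summed level was 12.9 and 17.9 CPM in control and 180.05 and 224 in the OGT-KO-labelled libraries. Of 9 stellate cell and fibroblast markers, 8 passed the filter and all 8 were called higher at both time points, against the same shares of all genes, with sums of 210 and 151 CPM in control and 3325 and 4103 in the other label. Acta2 and Des passed only through the other label in the same way. Lrat, at 10.6 and 6.46 CPM in control and 38.4 and 38.6 in the other label, also needed that label to reach the mean of 10 CPM. Of 11 monocyte and macrophage markers, 8 passed the filter and all 8 were called higher at both time points, against the same shares of all genes. Cx3cr1 and Cd14 were under 10 CPM in both control libraries and passed only through the other label. Adgre1, Cd68 and Marco, under 10 CPM in control after 7 days, also needed that label to pass. The 9 hepatocyte markers summed to 81596 and 89887 CPM in control and 54655 and 65785 in the OGT-KO-labelled libraries. Of these markers, 5 and 4 were called lower, beside 5.69% and 4.27% of all compared genes. Alb, which made up most of each sum, had log2 fold changes of -0.21 and -0.08, and Tat went the other way at 0.14 and 0.46. Endothelial markers summed to 171 and 118 CPM in control and 296 and 218 in the other label. T and NK cell, B cell and dendritic cell markers stayed under 6 CPM in sum in every library, and Flt3 had no read in control after 7 days. None of the bile duct, stellate or hepatocyte markers was at 0 in any library. The part of these cells in the S100 values was not tested.

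Between the time points, no member was called within either label. Of the compared genes, 0.245% were called higher and 0.96% lower after 7 days in control, and 1.04% and 0.435% in the OGT-KO-labelled libraries. In control, all 7 members were lower after 7 days, with log2 fold changes between -0.51 and -0.20. The median was -0.23 for the members and -0.05 for all listed genes, so most listed genes were lower too. The counting intervals of the ratio excluded 1 for S100a1, S100a8, S100a10 and S100a13 but not for S100a6, S100a9 and S100a11. In the OGT-KO-labelled libraries, S100a6 was lower after 7 days at a ratio of 0.665 [0.595 to 0.743], S100a10 at 0.840 [0.811 to 0.871] and S100a11 at 0.859 [0.816 to 0.903]. S100a8 and S100a9 were higher there, at 1.87 [1.5002 to 2.34] and 1.54 [1.25 to 1.89]. S100a1 and S100a13, at 1.06 [0.971 to 1.15] and 0.906 [0.778 to 1.05], did not differ beyond counting error. The difference between the labels in how a member differed between the time points ranged from -0.36 on the log2 scale for S100a6 to 1.30 for S100a8, and was -0.02 for S100a10 and -0.01 for S100a11.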

How the data were processed

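The authors deposited CPM values (each library sums to 1000000) for 13903 genes and 4 liver mRNA-seq libraries in a single table, and all columns were used. The submitters' processing notes name STAR, DESeq2 and GRCm39. The counter, annotation, strand setting and gene filter are not given in the sources used here. In these columns 100% of the values were whole reads within 0.1 read. Whole reads were therefore recovered (19972699 to 22866431 per library, where 3 reads are 0.131 to 0.150 CPM). Gene identifiers were matched to GENCODE M21 (GRCm38), in which 13893 were found. It was used for transcript length and gene order, and promoter sequences are RefSeq entries of GRCm38.p6 for 6 members.

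Log2 fold changes used a pseudocount of 1 CPM, a minimum mean of 10 CPM and a call at 2-fold. With 1 library per condition no test was made between conditions. Named genes were all members, the other S100 genes, a fixed partner list, marker lists, genes between the S100 genes of chromosome 3 and the nearest gene to each member by expression pattern. From the bile duct list, 1 marker is not reported here and was left out of its counts and sums. Members and lists were chosen with earlier results of these data known. The steps were tested on simulated reads, with 4-fold differences planted in genes well above the filter and no shift of the whole table. Calls near 2-fold, at low values or under such a shift were not checked in this way. Reads without molecular identifiers are not independent molecules, so intervals cover counting error only. Python 3.11.15, numpy 2.4.6, pandas 2.3.3 and scipy 1.17.1 were used.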

Additional observations from a re-analysis of the deposited data

Results flagged for a closer look

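Members with opposite directions under the same contrast are listed here, and none of these differences was tested, since each condition is 1 library. Between no recovery and 7 days, S100a8 had a log2 fold change of -0.51 in control but 0.80 under the OGT-KO label, a difference of 1.30. S100a9 had -0.38 and 0.55, a difference of 0.94. Both rest on 8 to 21 reads in the control libraries. Over the same time points the summed neutrophil markers went from 4.61 to 1.75 CPM in control and from 23.6 to 31.5 CPM in the OGT-KO-labelled libraries, where Ltf went from 1.79 to 0.842 CPM. The summed monocyte and macrophage markers went from 219 to 82.8 CPM in control and from 1022 to 830 CPM under the OGT-KO label. The part of these cells was not tested. S100a1 had -0.21 in control but 0.08 under the OGT-KO label, a difference of 0.28. S100a13 was at -0.13 between the labels with no recovery and at 0.14 after 7 days, a difference of 0.27, and its counting intervals overlapped between the labels at both time points.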

How the results depend on the processing

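Of 64 recomputed counts of members, 6 moved by over 1.5 times, and most of the others were 0 as reported and had little room to move. With no filter on low values, 5 members were higher in the OGT-KO-labelled library at each time point, since S100a8 and S100a9 were then counted. With upper-quartile or median-ratio scaling, 1 member, S100a1, was at least 2-fold lower at each time point. With median-ratio scaling 2 members were higher in place of 3, because S100a10 was at 0.982 and 0.997. S100a6 was lost with a mean of at least 50 CPM and S100a10 at 4-fold, which left 2. Of 112 recomputed log2 fold changes of members, 30 moved, among them S100a6, at 1.99 and 1.60 with a pseudocount of 10, and 2 changed sign, both for S100a13 after 7 days (-0.32 with upper-quartile and -0.50 with median-ratio scaling). Testing the recovered reads of each gene by an exact binomial test (Benjamini-Hochberg adjusted), a step chosen after the data were seen, removed no gene called at 2-fold (2185 higher and 510 lower with no recovery, 2050 and 383 after 7 days). It compares libraries and not conditions.

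Counts over all genes moved further. With no recovery, 1208 genes were higher and 981 lower with upper-quartile scaling, 935 and 1381 with median-ratio scaling, 1367 higher with a pseudocount of 10, 4595 higher with no filter, 525 higher with a mean of at least 50 CPM, and 691 and 164 at 4-fold. After 7 days these were 1215 and 740, 1038 and 1055, 1344, 4492, 503, and 788 and 87. Between the time points, counts in control (22 higher, 86 lower) ranged from 3 to 35 and from 2 to 134, and in the OGT-KO-labelled libraries (93 and 39) from 7 to 178 and from 1 to 110. Depth limits the ratios of S100a6, S100a8 and S100a9, with at most 29 control reads each, and those of S100a14 and S100g, with at most 1. No replicate could be left out.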

Other observations

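In GENCODE M21, 75 protein-coding genes lie on chromosome 3 from the first to the last S100a gene, and 61 of them are not S100 genes and include genes of the skin barrier. Of these, 8 have a row and 1 passed the filter. That gene, Sprr1a, encodes a small proline-rich protein of the cornified envelope and was at 0.376 and 0.2503 CPM in control and 57.5 and 58.3 in the OGT-KO-labelled libraries, with log2 fold changes of 5.41 and 5.57. Sprr1a was under 10 CPM in both control libraries and passed the filter only through the other label, so it had to differ. The other genes of this stretch with a row stayed under the filter. Among them, Lor and Ivl were at 1.53 CPM or less in every library. Lce6a had log2 fold changes of 0.69 and 1.47, and Tchh of -0.76 and -0.66. S100a11 and S100a10 are the last genes of this order, next to each other.

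The gene with the most similar pattern to each member was sought among the compared genes, as the root mean square difference of log2(CPM + 1) values centred over the 4 libraries. It was Itpr2 for S100a1 (difference 0.00444), Basp1 for S100a6 (0.0698), Mcm3 for S100a8 (0.0463), Nav1 for S100a9 (0.0290), Urm1 for S100a10 (0.0218), Nid1 for S100a11 (0.0547) and Tmem219 for S100a13 (0.0340). With 4 libraries such a likeness is a description only. Among the members, S100a8 and S100a9 lay nearest to each other, at 0.124, followed by S100a1 and S100a13 at 0.382 and S100a6 and S100a11 at 0.388.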
